A study of Rattus norvegicus with 6 samples.

Results

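Rat myocardium that had been infarcted and injected with labelled stem cells of adipose tissue was compared with myocardium of a sham-operated rat. The comparison was chosen by the sample labels and uses 3 of the 6 arrays in the series: 2 arrays of treated myocardium, numbered replicates 1 and 3 by the submitters, and 1 array of sham myocardium. All came from Sprague Dawley rats aged 13 weeks. Treated tissue came from an infarct model and had received, by injection into the heart muscle, stem cells of adipose tissue (ADSCs, cultured mesenchymal cells) labelled with 124I-HIB, a lipophilic tracer that carries radioactive iodine. Sham tissue came from a heart that had a sham operation. One further array, of infarcted myocardium injected with phosphate-buffered saline (PBS), is given beside the treated arrays as a side value. It is set against the same sham array, so the PBS and treated differences are not independent. The arrays of cultured ADSCs, 1 labelled with 124I-HIB and 1 unlabelled, both of culture day 14, serve only for signals of marker genes. The sampling day of every myocardial array is given as day 21 after sham operation, also for the infarcted hearts, so the time since the infarct and the injection is unclear. The labels name no region of the heart (scar, border or remote muscle), no number of injected cells, and no statement that the treated pair came from separate animals. Sham has no replicate.

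After an infarct, dead heart muscle is replaced by a collagen scar made by fibroblasts, while inflammatory cells enter and then clear and the surviving muscle shifts its metabolism and its contractile and stress genes. Adult heart muscle burns mainly fatty acids, and genes such as Angptl4, Ucp3 and Pdk4 respond to lipid through the PPAR family of nuclear receptors. Injected ADSCs are studied for the factors they secrete more than for lasting engraftment. In whole tissue, fewer cells of a type and less RNA per cell cannot be told apart.

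Signals below are relative to each array's 75th percentile, so a signal of 1 equals that percentile, and differences are treated minus sham on the log2 scale. A feature is a gene, read from its brightest probe, or an unnamed probe; it counts as measured when the scanner software called it well above background on all 3 arrays. The 75th percentile itself was a raw signal of 1276 and 1058 on treated replicates 1 and 3, 1120 on the PBS array and 772 in sham. Between 64.4% and 67.7% of probes were well above background on the 4 myocardial arrays, sham having the lowest share. The treated pair correlated at r = 0.994 across features, and each of them with sham at 0.992 and 0.991. All 15 ventricular and general cardiomyocyte markers were measured on the 3 arrays, so the tissue label was borne out by its markers. Bright features as a class lay lower in the treated arrays: the median difference was -0.04 over all features measured, -0.15 in the brightest 10% and -0.26 in the brightest 2%.

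Of 16757 features measured, 163 (0.973%) were at least 2-fold from sham in the same direction in both treated arrays: 97 (0.579%) were higher and 66 (0.394%) lower. Replicate 1 alone had 170 features 2-fold higher (1.01%) and 191 lower (1.14%), and replicate 3 alone had 222 (1.32%) and 181 (1.08%). Among named genes alone, 38 of 10495 were 2-fold higher (0.362%) and 31 were 2-fold lower (0.295%). In limma 0 of 19235 fitted features passed an adjusted p of 0.05, and 1850 (9.62%) passed that level before adjustment. The fit has 1 residual degree of freedom, which comes from the treated pair, and it assumes that the lone sham array varies like that pair. No difference reported here is therefore significant after adjustment, and "higher" and "lower" describe these arrays. With another background correction (normexp) 50 features passed, and with a trended, robust variance 49 did. Both of these fits passed 36 features, 7 of them named genes, among them Btla, Mrpl10, Rtel1, Avp, C2h3orf33 and Lrr1. By any amount, 5524 features (33.0%) lay above sham in both treated arrays and 7088 (42.3%) below it. The counts of gene lists below are to be read against these shares. With normexp the shares were 20.9% and 58.1%, and with quantile normalization 37% and 36.9%.

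**Figure D1:**
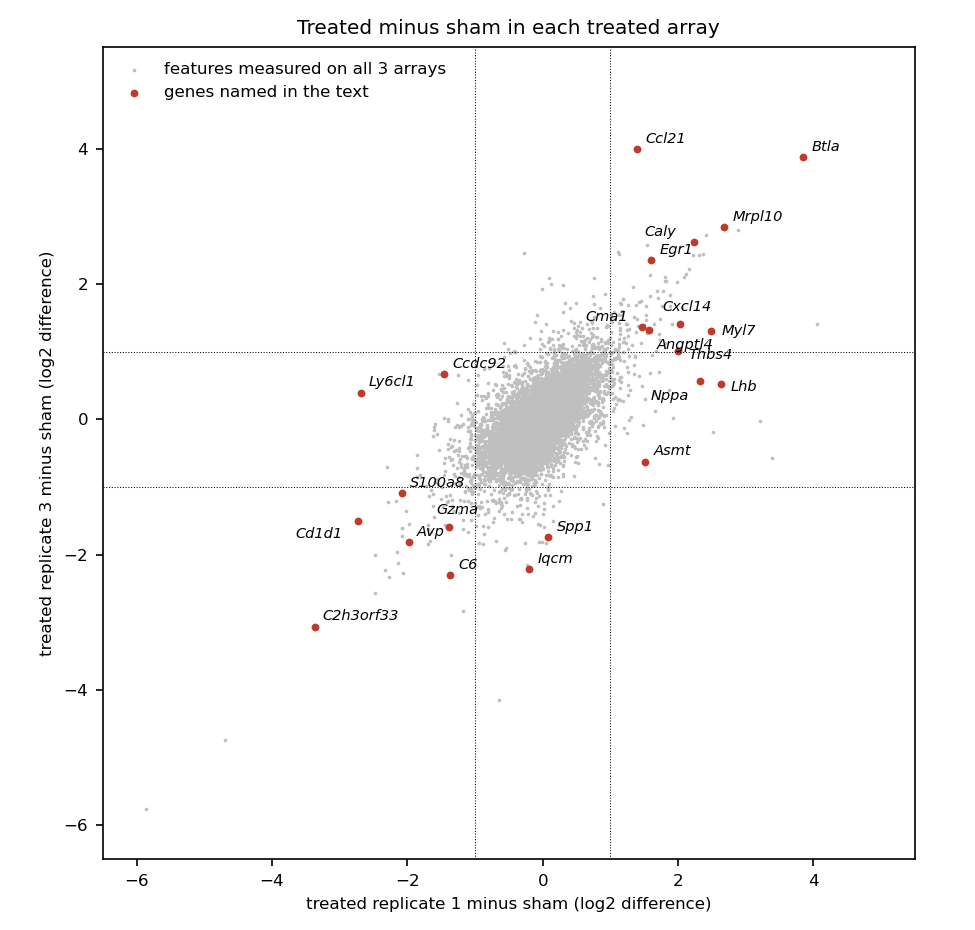
Each point is 1 of 16757 features, with its log2 difference from sham in treated replicate 1 on the horizontal axis and in treated replicate 3 on the vertical axis. Dotted lines mark 2-fold, and genes named in the text are red. Btla, Mrpl10 and C2h3orf33 lie far from 0 in both arrays, whereas Ccl21, Asmt, Ly6cl1, Ccdc92 and Iqcm lie far from the diagonal.

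The gene furthest above sham was annotated as Btla, an inhibitory receptor of lymphocytes. Its brightest probe had signals of 112 and 114 in treated replicates 1 and 3, 104 on the PBS array and 7.78 in sham, a difference of 3.86 ± 0.01 (SD, n = 2; limma adjusted p = 0.238). A second probe of Btla ran the other way, with 0.0223 and 0.0218 in the treated arrays and 0.0306 in sham, and it was well above background on only 2 of the 3 arrays. The receptor's high signal therefore rests on 1 probe. Mrpl10, a protein of the large mitochondrial ribosomal subunit, came next. Its brightest probe read 47.4 and 52.7 in the treated arrays, 12.4 on the PBS array and 7.38 in sham (2.76 ± 0.11, adjusted p = 0.238). Its other probe, measured on all 3 arrays, read 0.462 and 0.424 in the treated arrays and 0.560 in sham, a difference of -0.34. The probes of Mrpl10 thus disagreed in direction, and most other mitochondrial ribosomal genes lay below sham.

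Other genes near the top of the ranking came from varied pathways. Caly, which encodes a vesicle protein of neurons, read 0.201 and 0.260 in the treated arrays and 0.0426 in sham (2.43 ± 0.26, adjusted p = 0.284). Slc6a12, a betaine and GABA transporter, read 0.0705 and 0.0812 against 0.0218 in sham (1.80 ± 0.14), but stood at only 0.27 with normexp. Gad1, an enzyme of GABA synthesis, read 0.173 and 0.132 in the treated arrays and 0.0418 in sham (1.86 ± 0.27, but 0.65 with normexp). Its second probe was at background on all 3 arrays, as was a second probe of the imprinted gene Nnat, so neither checks the first. Rtel1, a helicase that guards telomeres, read 1.87 and 2.21 in the treated arrays, 2.35 on the PBS array and 0.625 in sham (1.70 ± 0.17). Its second probe was at background on all 3 arrays and gives no check. Among the 25 highest genes, 4 turned below sham with normexp: the olfactory receptors Or4c122 and Or1p1, the synaptic adhesion gene Lrfn1 and the mitochondrial creatine kinase Ckmt1.

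The lowest genes included hormones, proteases and lymphocyte genes. C2h3orf33 read 0.0477 and 0.0589 in treated replicates 1 and 3, 0.0684 on the PBS array and 0.494 in sham (-3.22 ± 0.22, limma adjusted p = 0.238). Avp, the precursor of vasopressin, read 0.140 and 0.157 in the treated arrays and 0.551 in sham (-1.90 ± 0.12, adjusted p = 0.284), and Cck, a gut and brain peptide, 0.117 and 0.129 against 0.296 in sham. Klk1c2, a tissue kallikrein, differed by -2.24 ± 0.34, the unconventional myosin Myo16 by -1.77 ± 0.11 and the RNA polymerase III subunit Polr3c by -1.76 ± 0.29. On these genes the PBS array also lay below sham, and the sham value comes from 1 array. The secreted phospholipase Pla2g2a read 1.71 and 1.73 in the treated arrays, 2.50 on the PBS array and 3.97 in sham (-1.21 ± 0.02). Rarres1, a retinoid-responsive membrane protein, read 0.155 and 0.150 in the treated arrays and 0.348 in sham.

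Other probes of the same gene were available for few of these genes. Of the 38 named genes that were 2-fold higher, 1 had another measured probe, that of Mrpl10. Of the 31 that were 2-fold lower, 4 genes had 5 other measured probes, all below sham in both treated arrays and 2 of them also 2-fold lower. The 3 probes of the granzyme gene Gzmc differed by -1.36, -1.25 and -1.03, and the 2 probes of Fxyd3, a regulator of the sodium pump, by -1.11 and -1.15. The second probe of Chm, which encodes a Rab escort protein, differed by only -0.15 where the first differed by -1.45. Over all named genes measured, 1142 of 1832 other probes had the sign of their gene's brightest probe.

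**Figure D2:**
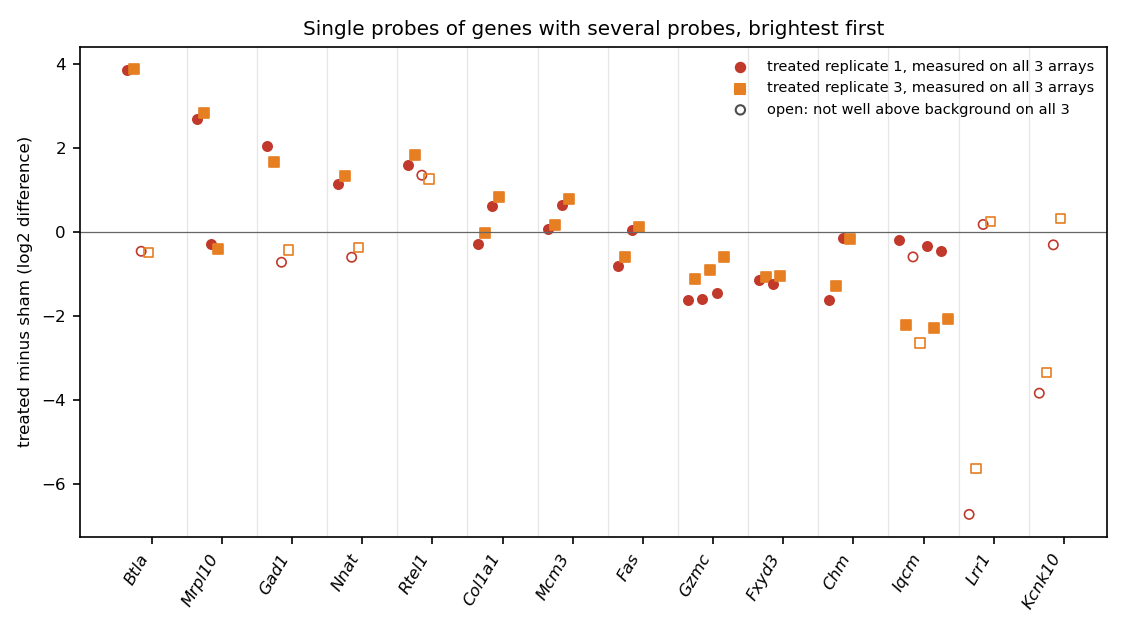
The log2 difference from sham is plotted for every probe of 14 genes, brightest probe first, with a circle for treated replicate 1 and a square for treated replicate 3. Filled symbols are probes measured on all 3 arrays. The probes of Mrpl10, Col1a1 and Fas disagree in sign, whereas those of Gzmc, Fxyd3 and Iqcm lie on the same side.

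Among fuel-handling genes, Angptl4 and Ucp3 were the 2 members of the fatty acid oxidation list past 2-fold, both above sham. Angptl4, an inhibitor of lipoprotein lipase, read 0.379 and 0.319 in treated replicates 1 and 3, 0.550 on the PBS array and 0.128 in sham. It was 2.71-fold higher in the treated pair (1.44 ± 0.18, limma adjusted p = 0.342), and both treated arrays lay well above sham. Ucp3, a mitochondrial carrier induced by fatty acids, read 0.397 and 0.399 in the treated arrays, 0.317 on the PBS array and 0.173 in sham (adjusted p = 0.341). Pdk4, the kinase that shuts off pyruvate dehydrogenase, read 0.171 and 0.184 in the treated arrays, 0.200 on the PBS array and 0.101 in sham (0.81 ± 0.08, but 0.35 with normexp). Cpt1a, the gate of mitochondrial fatty acid entry in liver and the fetal heart, read 0.819 and 0.834 in the treated arrays and 0.658 in sham. The receptor gene Ppara itself differed by -0.30 in replicate 1 and 0.31 in replicate 3.

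Of the 24 fatty acid oxidation genes measured, 5 lay above sham in both treated arrays and 12 below it, shares of 20.8% and 50% beside 33.0% and 42.3% of all features, and the median was -0.07. The trifunctional protein genes Hadha and Hadhb differed by -0.44 ± 0.18 and -0.43 ± 0.17, and the fatty acid carrier Fabp3 by -0.61 ± 0.08. A second measured probe of Hadha differed by -0.19. The long-chain dehydrogenase Acadl differed by -0.34 but by 0.00 with quantile normalization. With quantile normalization 8 of these genes lay above sham and 7 below it, so the lower side of this group depends on how bright genes are scaled. Angptl4, Ucp3 and Pdk4 stayed above sham under each scaling tried.

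Glucose genes were led by a transporter. Slc2a1 (GLUT1), the glucose carrier typical of fetal and stressed heart muscle, read 1.69 and 1.68 in the treated arrays, 1.29 on the PBS array and 0.772 in sham (1.12 ± 0.01, limma adjusted p = 0.350). Slc2a4 (GLUT4), the insulin-responsive carrier, read 18.3 and 21.3 in the treated arrays and 18.2 in sham. The treated pair thus lay close to sham for Slc2a4 and well above it for Slc2a1. Hexokinase 2 (Hk2) differed by -0.46 ± 0.05 and the kinase Pdk1 by -0.66 ± 0.12. Of 20 glycolysis and glucose uptake genes measured, 3 were above sham in both treated arrays and 14 below it, with a median of -0.14 that went to 0.00 with quantile normalization. Txnip, an inhibitor of glucose uptake and of thioredoxin, read 5.01 and 4.52 in the treated arrays, 5.18 on the PBS array and 2.55 in sham (0.90 ± 0.10).

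**Figure D3:**
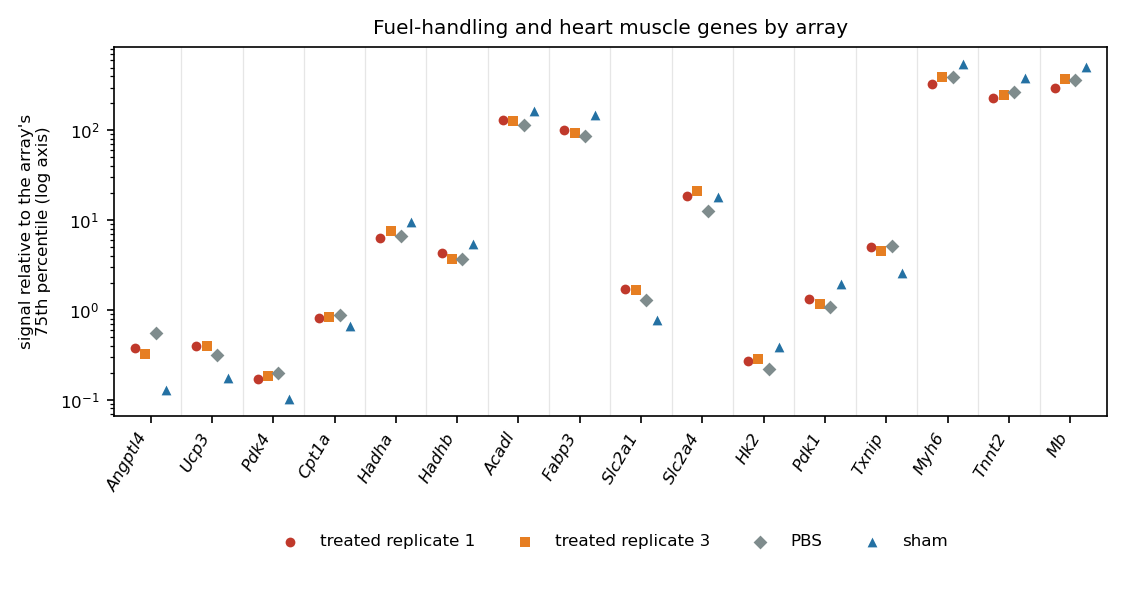
Signals relative to each array's 75th percentile (log axis) of 16 fuel-handling and heart muscle genes, with 1 symbol per array; heights are comparable within a gene only. Angptl4, Ucp3, Pdk4, Slc2a1 and Txnip lie above sham in both treated arrays, and Fabp3, Pdk1, Myh6, Tnnt2 and Mb lie below it, Mb turning to 0.04 with quantile normalization.

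All 15 ventricular and general cardiomyocyte genes lay below sham in both treated arrays, with a median difference of -0.40. Cardiac troponin T (Tnnt2) read 228 and 246 in treated replicates 1 and 3, 268 on the PBS array and 384 in sham (-0.70 ± 0.08, limma adjusted p = 0.454). The fast myosin heavy chain Myh6 read 330 and 395 in the treated arrays and 552 in sham (-0.61 ± 0.18), and myoglobin (Mb) 295 and 373 against 511 in sham. The slow myosin heavy chain Myh7, which usually gains on Myh6 in a loaded rat heart, read 281 and 293 in the treated arrays and 315 in sham. With quantile normalization Myh7 turned to 0.32 and Mb to 0.04, above sham. These are bright probes, and the brightest 2% of features had a median of -0.26. With quantile normalization 4 of the 15 lay above sham in both arrays and 5 below it, with a median of -0.01, so the shared direction was absent under that scaling.

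Mitochondrial genes also lay mostly below sham. Of 38 respiratory chain subunits, 33 lay below sham in both treated arrays and none above, with a median of -0.27. With quantile normalization 18 lay below and 7 above, with a median of -0.04. Those furthest below were the ATP synthase subunit Atp5f1a (-0.62), Cox8b and Cox6c of cytochrome oxidase, and cytochrome c (Cycs, -0.51). A second probe of Cycs, measured on all 3 arrays, differed by 0.04. Of 65 mitochondrial ribosomal proteins, 46 lay below sham in both arrays and 9 above it, with a median of -0.17. With quantile normalization 36 members lay below and 13 above, where 36.9% of all features lay below, and the median was -0.11. Mrpl52 was 2-fold lower, at 0.162 and 0.172 in the treated arrays and 0.358 in sham (-1.10 ± 0.06).

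Several atrial and wall stress genes were uneven between the treated arrays. Of 13 fetal and wall stress genes measured, 7 (53.8%) lay above sham in both arrays and 1 (7.69%) below it. Over all features 33.0% lay above and 42.3% below. The list's median was 0.28 in replicate 1 and 0.01 in replicate 3. With quantile normalization 9 of its genes lay above sham and 0 below, and with normexp 5 above and 2 below. Myl7, the atrial regulatory myosin light chain, read 4.04 and 1.78 in treated replicates 1 and 3, 193 on the PBS array and 0.721 in sham (1.90 ± 0.84, limma adjusted p = 0.509). Nppa, the atrial natriuretic peptide that ventricular muscle re-expresses under load, read 34.9 and 10.3 in the treated arrays, 90.0 on the PBS array and 6.95 in sham (1.45 ± 1.24, adjusted p = 0.640). Nppb, the B-type peptide, read 51.6 and 29.4 in the treated arrays and 44.4 in sham. Replicate 1 was the higher of the pair for each of these genes, and for Nppb the pair lay on either side of sham. Skeletal alpha-actin (Acta1) and the stretch-induced factor Ankrd1 also lay above sham in replicate 1 and below it in replicate 3. The atrial light chain Myl4, by contrast, read 126 and 130 in the treated arrays and 161 in sham, but stood at 0.02 with quantile normalization. Mybphl, an atrial myosin-binding protein, was not well above background in either treated array and read 2.72 on the PBS array. How much atrial muscle each piece of tissue held was not tested.

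Among 20 ion channel genes of the action potential, 11 lay above sham in both treated arrays and 6 below it. Kcnh2, the rapid delayed rectifier, read 0.837 and 0.870 in the treated arrays, 0.515 on the PBS array and 0.535 in sham (0.67 ± 0.04, limma adjusted p = 0.455). A second measured probe of Kcnh2 differed by 0.28. The T-type calcium channels Cacna1h and Cacna1g differed by 0.71 ± 0.31 and 0.75 ± 0.09, and the pacemaker channel Hcn4 by -0.73 ± 0.32. Kcnd2, a channel of the transient outward current, read 0.208 and 0.548 in the treated arrays and 0.166 in sham, so its size rests on replicate 3. Of 14 calcium handling genes, 11 lay below sham in both arrays, led by calsequestrin 2 (Casq2, -0.60). With quantile normalization 7 lay below sham and 4 above it, with a median of -0.06 in place of -0.15. The exception with a sizeable difference was Fkbp1b, a ryanodine receptor subunit, at 0.55 and 0.95.

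Interferon-stimulated genes lay below sham as a group. Of 23 measured, 18 (78.3%) were below sham in both treated arrays and 3 above it, where 42.3% of all features were below, and the median was -0.23. Isg15, a ubiquitin-like modifier, read 1.80 and 1.93 in treated replicates 1 and 3, 1.53 on the PBS array and 2.85 in sham (-0.61), and Oas1a, a sensor of double-stranded RNA, 0.327 and 0.391 against 0.545 in sham. The antiviral GTPase Mx1 and the Isg15 protease Usp18 differed by -0.53 ± 0.08 and -0.54 ± 0.12. The exceptions above sham were Bst2 (tetherin), at 3.47 and 3.52 in the treated arrays and 2.51 in sham, Cxcl10 and Irf9. Under other scalings 16 of 23 lay below sham in both arrays by normexp and 16 by quantile normalization, with medians of -0.21 and -0.15. By the same scalings 58.1% and 36.9% of all features lay below. None of the 23 was 2-fold apart.

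Interferon-stimulated genes carry, close to their starts, an element through which interferon acts on them. The 250 bases before the start of 4 members are printed because they hold that motif, in 3 genes that lay below sham and in Bst2, which lay above it. The sequences are those of RefSeq on build GRCr8, and capitals mark matches, on either strand, to GAAA followed by any 2 bases and a second GAAA.
Oas1a, chr12:41330216-41330465, plus strand: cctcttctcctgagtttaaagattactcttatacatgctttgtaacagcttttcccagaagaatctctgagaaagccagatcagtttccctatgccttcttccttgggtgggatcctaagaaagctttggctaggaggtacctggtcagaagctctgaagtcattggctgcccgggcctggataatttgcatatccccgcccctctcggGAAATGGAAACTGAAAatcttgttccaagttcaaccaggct
Ifi44, chr2:243303841-243304090, minus strand: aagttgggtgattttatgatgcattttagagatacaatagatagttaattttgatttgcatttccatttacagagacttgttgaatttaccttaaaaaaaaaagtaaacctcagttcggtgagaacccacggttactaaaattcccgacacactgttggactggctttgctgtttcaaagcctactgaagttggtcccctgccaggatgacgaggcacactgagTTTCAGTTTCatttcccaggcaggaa
Irf7, chr1:205800024-205800273, minus strand: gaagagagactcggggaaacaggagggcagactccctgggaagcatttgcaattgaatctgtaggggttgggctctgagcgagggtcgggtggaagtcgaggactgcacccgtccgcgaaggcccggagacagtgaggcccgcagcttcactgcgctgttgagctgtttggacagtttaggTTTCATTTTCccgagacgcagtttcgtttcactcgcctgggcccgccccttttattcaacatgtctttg
Bst2, chr16:18254968-18255217, minus strand: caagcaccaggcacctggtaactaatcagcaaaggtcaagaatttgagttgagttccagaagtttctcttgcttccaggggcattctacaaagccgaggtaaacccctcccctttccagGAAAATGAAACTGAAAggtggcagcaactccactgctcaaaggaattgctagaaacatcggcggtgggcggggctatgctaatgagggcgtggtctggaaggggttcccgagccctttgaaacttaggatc
Oas1a and Bst2 each held 2 overlapping matches, which begin 41 and 35 bases before the start in Oas1a and 131 and 125 bases before it in Bst2. Ifi44 held 1 match, 26 bases before the start, and Irf7 held 1, 69 bases before it. A promoter was on hand for 18 of the 23 measured interferon genes, and 12 of them (66.7%) held the motif, against 902 of all 27457 promoters of that length (3.29%). The motif stood before genes on both sides of sham.

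Of 30 chemokine and receptor genes, 11 were above sham in both treated arrays and 10 below it, near the shares of all features; 3 were 2-fold higher and 1 was 2-fold lower. Cxcl14, a chemokine made by stroma and epithelium, read 1.08 and 0.702 in treated replicates 1 and 3, 0.929 on the PBS array and 0.265 in sham (1.71 ± 0.44, limma adjusted p = 0.428). Ccl21, which guides cells into lymphatic vessels and lymph nodes, read 0.372 and 2.24 in the treated arrays, 3.03 on the PBS array and 0.141 in sham (2.69 ± 1.83, adjusted p = 0.589). Both treated arrays lay above sham for Ccl21, but far apart. Cxcl13, the B cell attractant, read 0.127 and 0.109 in the treated arrays, 0.306 on the PBS array and 0.0532 in sham (1.14 ± 0.16, but 0.40 with normexp). Ccl19, which shares its receptor with Ccl21, differed by 0.66 ± 0.23 and the stem cell attractant Cxcl12 by 0.63 ± 0.34. A second measured probe of Cxcl12 differed by 0.14. Cxcl11, induced by interferon as Cxcl10 is, was 2-fold lower, at 0.763 and 0.761 in the treated arrays, 0.605 on the PBS array and 1.59 in sham (-1.06 ± 0.00, adjusted p = 0.371). The neutrophil attractant Cxcl1 and the scavenging receptor Ackr2 differed by -0.65 ± 0.14 and -0.83 ± 0.03. Ccl21 also marks lymphatic endothelium, whose other measured markers Pdpn, Flt4 and Lyve1 differed by 0.32, 0.08 and -0.12, Flt4 turning to -0.06 with normexp. A further marker of that list, Reln, was well above background in both treated arrays and not in sham, which bounds it at 2.84-fold higher or more in each.

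Cytotoxic lymphocyte genes lay below sham. Of 18 T and NK cell genes measured, 13 (72.2%) were below sham in both treated arrays and 2 above it, with a median of -0.30. Gzma, a granule protease, read 0.0338 and 0.0293 in the treated arrays, 0.0524 on the PBS array and 0.0881 in sham (-1.48 ± 0.15, limma adjusted p = 0.317). Gzmb read 0.0691 and 0.0700 in the treated arrays and 0.110 in sham, and the NK receptor subunit Klrd1 0.0338 and 0.0424 against 0.0648 in sham. The T cell receptor chains Cd3g and Cd247 differed by -0.52 ± 0.08 and -0.64 ± 0.23. The exceptions were Gzmm (0.27) and Cd8a, which stood at 0.25 but at -0.16 with normexp. With quantile normalization 12 of the 18 were below sham in both arrays. Ptprc (CD45), carried by all white blood cells, read 0.224 and 0.272 in the treated arrays and 0.349 in sham. Of 6 B and plasma cell genes, 4 lay below sham, with the coactivator Pou2af1 at -1.69 ± 0.67.

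Neutrophil genes were low as well, and less evenly. The calgranulins S100a8 and S100a9 read 0.0392 and 0.0782, and 0.0602 and 0.120, in treated replicates 1 and 3, against 0.166 and 0.218 in sham. Their differences were -1.59 ± 0.70 and -1.35 ± 0.71 (limma adjusted p = 0.514 and 0.540). Of 6 neutrophil genes measured, 5 lay below sham in both arrays and the exception was Lcn2, an iron-binding defence protein that other cells also make, at 0.577 and 0.649 in the treated arrays and 0.383 in sham. Haemoglobin beta (Hbb), a sign of blood in the tissue, read 122 and 179 in the treated arrays, 147 on the PBS array and 265 in sham. It was the lowest of 8 erythroid genes measured, of which 4 lay below sham in both arrays and 3 above it, with a median of -0.13 that turned to 0.02 with quantile normalization. The part of blood content in the neutrophil and lymphocyte values was not tested.

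Mast cell proteases lay above sham. Cma1, a mast cell chymase, read 0.367 and 0.343 in treated replicates 1 and 3, 0.304 on the PBS array and 0.133 in sham (1.41 ± 0.07, but 0.91 with normexp). The tryptase Tpsab1 read 0.410 and 0.339 in the treated arrays, 0.190 on the PBS array and 0.185 in sham (1.01 ± 0.19). Of 8 mast cell genes measured, 5 were above sham in both treated arrays and 1 below it, the receptor Kit (-0.31 ± 0.12), with a median of 0.28 that went to 0.04 with normexp. Beyond these 8, the mast cell genes Mcpt1, Fcer1a and Cpa3 were well above background in both treated arrays and not in sham. They were set against the lowest signal called above background in sham, or against their own signal there if higher. By that reference they stood at least 1.85-fold, 1.79-fold and 1.79-fold higher in each treated array. The reference is not a detection limit, since the probe of Kcnk1 went uncalled in sham at 0.0228. A bound therefore holds against that reference only. Hpgds, a prostaglandin synthase of mast cells, was well above background in sham only, at least 1.63-fold lower in each treated array. The Cma1 and Tpsab1 proteases have close relatives in the rat, so their probes may read more than 1 gene.

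Antigen presentation genes were mixed, and more complement genes lay below sham than above it. Cd1d1, a lipid-presenting molecule, read 0.775 and 1.81 in the treated arrays, 0.585 on the PBS array and 5.14 in sham (-2.12 ± 0.87, limma adjusted p = 0.491). The class I gene RT1-A2 read 3.57 and 3.67 in the treated arrays, 2.65 on the PBS array and 2.13 in sham (0.76 ± 0.03), and its probe may read related class I genes. Of 18 complement genes, 11 (61.1%) lay below sham in both treated arrays and 1 (5.56%) above it, with a median of -0.12. Over all features 42.3% lay below and 33.0% above. With normexp 13 complement genes lay below and 1 above, and with quantile normalization 10 below and 1 above. C6, a part of the membrane attack complex, read 0.0574 and 0.0302 in the treated arrays, 0.267 on the PBS array and 0.149 in sham (-1.84 ± 0.66). Complement factor D (Cfd), also an adipocyte product, read 0.959 and 0.894 in the treated arrays and 1.73 in sham. C4a was the member above sham, at 1.28 and 1.62 in the treated arrays, 15.1 on the PBS array and 0.935 in sham. Among 16 macrophage genes 8 lay below sham and 4 above it, near the shares of all features. Trem2 differed by -0.62 ± 0.03 and Adgre1 by -0.78 ± 0.14. The highest member, Csf1r, differed by 0.42, and a second measured probe of Csf1r by 0.03.

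**Figure D4:**
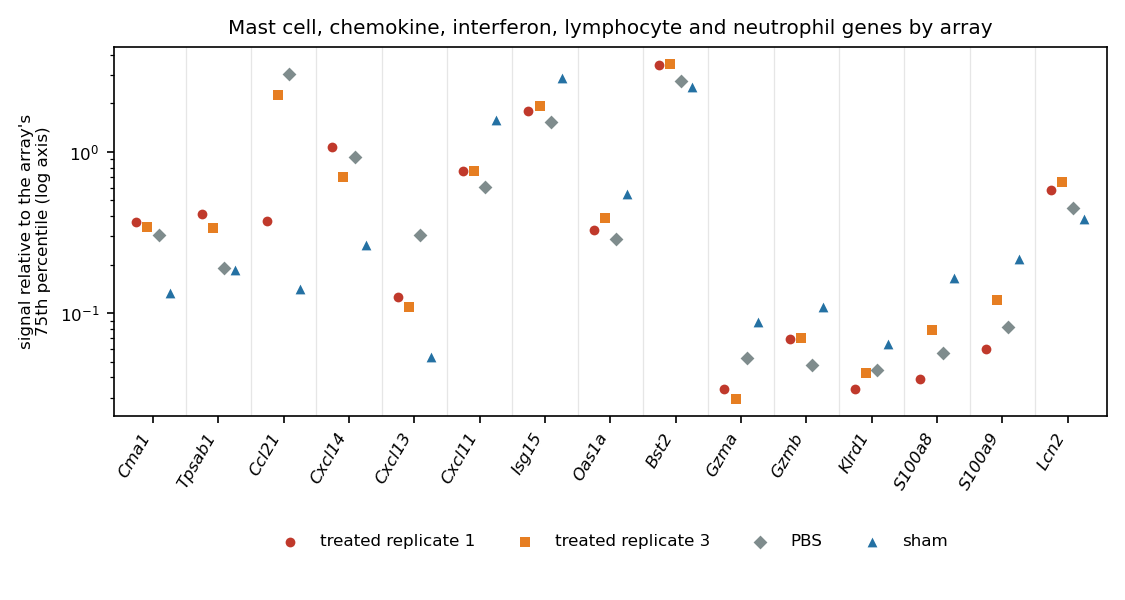
Signals relative to each array's 75th percentile (log axis) of 15 immune genes, with 1 symbol per array; heights are comparable within a gene only. Cma1, Tpsab1, Cxcl14, Cxcl13 and Bst2 lie above sham in both treated arrays, and Cxcl11, Isg15, Oas1a, Gzma, Gzmb, S100a8 and S100a9 lie below it.

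Scar collagen lay close to sham in the treated arrays by the brightest probes. Collagen I (Col1a1) read 5.05 and 5.98 in treated replicates 1 and 3, 6.49 on the PBS array and 6.11 in sham, and collagen III (Col3a1) 17.9 and 20.3 in the treated arrays, 23.1 on the PBS array and 19.4 in sham. A second probe of Col1a1, measured on all 3 arrays, differed by 0.72, so the probes of that gene disagree. Of 24 fibrillar matrix genes, 5 lay above sham in both arrays and 10 below it, with a median of -0.06 where the PBS array had 0.35. Thbs4, a matricellular protein of loaded heart, was the member past 2-fold, at 0.255 and 0.129 in the treated arrays, 0.485 on the PBS array and 0.0638 in sham (limma adjusted p = 0.518). Fmod, a collagen-binding proteoglycan, read 0.301 and 0.545 in the treated arrays, 2.46 on the PBS array and 0.254 in sham. The microfibril genes Mfap5 and Fbn1 differed by -0.68 ± 0.20 and -0.39 ± 0.02, and the collagen-degrading cathepsin Ctsk by -0.69 ± 0.10.

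Of 15 fibroblast genes measured, 9 lay below sham in both treated arrays and 3 above it, with a median of -0.20. Meox1 and Fap, genes of activated fibroblasts, read 0.106 and 0.109, and 0.245 and 0.261, in the treated arrays, against 0.0660 and 0.164 in sham, with differences of 0.71 ± 0.03 and 0.62 ± 0.07. Meox1 stood at 0.16 with normexp. Below sham, Pi16 differed by -0.93 ± 0.43, Dpep1 by -0.83 ± 0.42, Pdgfra by -0.51 ± 0.02 and Tcf21 by -0.50. A second probe of Pi16 differed by -0.20.

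In the TGF-beta list the ligand Tgfb2 read 0.156 and 0.123 in treated replicates 1 and 3, 0.228 on the PBS array and 0.0644 in sham (1.11 ± 0.25, limma adjusted p = 0.432), but its difference was 0.35 with normexp. The targets Ccn2 (connective tissue growth factor) and Smad7 (a feedback inhibitor) differed by 0.88 ± 0.37 and 0.75 ± 0.38. The receptor Tgfbr1 differed by -0.37 and the activin antagonist Fst by -0.73 in replicate 1 and 0.00 in replicate 3. Of 17 members 7 lay above sham in both arrays and 6 below it. Their median of 0.18 went to 0.00 with normexp and was -0.03 in replicate 1 alone.

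The secreted Wnt antagonist Sfrp2 read 0.184 and 0.173 in the treated arrays, 0.707 on the PBS array and 0.0544 in sham (1.72 ± 0.06, limma adjusted p = 0.284). With normexp Sfrp2 stood at 0.89. Sost, another antagonist, stood at 0.94 but at -0.16 with normexp. Of 12 Wnt genes 7 lay above sham in both arrays and 3 below it, and the median of 0.18 turned to -0.12 with normexp. Among 40 growth and angiogenic factors, 14 lay above sham and 12 below it, close to the shares of all features. Igfbp3, a carrier of insulin-like growth factors, read 4.36 and 4.58 in the treated arrays, 7.38 on the PBS array and 3.21 in sham. Igfbp6 read 0.454 and 0.638 in the treated arrays, 0.926 on the PBS array and 1.05 in sham (-0.96 ± 0.35). Vegfa differed by -0.37 and -0.06, Igf1 by -0.35 and -0.08, and Pdgfd by -1.01 and -0.11 in replicates 1 and 3. No factor in this list was 2-fold apart in both arrays.

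Immediate early genes, which cells switch on within minutes of stress or growth factor signals, were led by Egr1. Egr1 read 0.266 and 0.447 in treated replicates 1 and 3, 0.425 on the PBS array and 0.0879 in sham, 3.92-fold higher in the treated pair (1.97 ± 0.53, limma adjusted p = 0.429). Zfp36, which destabilises inflammatory messenger RNAs, read 0.0959 and 0.0770 in the treated arrays and 0.0352 in sham (1.29 ± 0.22, but 0.27 with normexp). Junb and Atf3 differed by 0.90 ± 0.39 and 0.61 ± 0.06. Fos was well above background in both treated arrays and not in sham, at least 2.14-fold higher in each. Other members did not share this direction: Dusp6 differed by -0.39 ± 0.17, Fosb by -0.24 and Nr4a1 by -0.23. Of 24 measured, 12 (50%) lay above sham in both arrays and 8 below it, with a median of 0.16. Such genes also respond to the handling of tissue, and how long the tissue was handled before freezing was not used here.

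The CArG box, the element bound by serum response factor, stands before many immediate early genes. The 250 bases before the start of the 2 members past 2-fold are printed because both hold it, from RefSeq on build GRCr8, with each CArG box in capitals.
Egr1, chr18:26736828-26737077, plus strand: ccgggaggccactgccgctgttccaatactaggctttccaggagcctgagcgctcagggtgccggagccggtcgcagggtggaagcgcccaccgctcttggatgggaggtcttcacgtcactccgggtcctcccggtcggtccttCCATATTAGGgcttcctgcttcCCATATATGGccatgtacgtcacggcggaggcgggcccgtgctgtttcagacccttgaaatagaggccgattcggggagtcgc
Zfp36, chr1:92799109-92799358, minus strand: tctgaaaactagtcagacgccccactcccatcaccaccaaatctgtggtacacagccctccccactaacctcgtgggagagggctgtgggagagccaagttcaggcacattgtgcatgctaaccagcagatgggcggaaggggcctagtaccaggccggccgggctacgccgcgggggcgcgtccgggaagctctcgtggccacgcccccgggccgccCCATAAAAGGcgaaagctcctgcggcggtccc
Egr1 held 2 boxes, 105 and 83 bases before the start, and Zfp36 held 1, 32 bases before it. Of 17 immediate early genes with a promoter on hand, 4 held a CArG box (23.5%), against 412 of 27457 promoters (1.5%). The other 2 were Klf6, which differed by 0.27, and Dusp5, which differed by -0.25.

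Cell cycle genes lay slightly above sham. Of 22 DNA replication genes 16 (72.7%) were above sham in both treated arrays and 3 below it, with a median of 0.17, and of 19 mitosis genes 12 (63.2%) were above and 3 below, also with a median of 0.17. The proliferation marker Mki67 read 0.543 and 0.641 in the treated arrays, 0.305 on the PBS array and 0.419 in sham (0.50 ± 0.17, limma adjusted p = 0.563). The mitotic kinase Cdk1 read 0.554 and 0.678 in the treated arrays, 0.273 on the PBS array and 0.453 in sham. The ribonucleotide reductase subunit Rrm2 differed by 0.38 and its partner Rrm1 by -0.38. With normexp the mitosis median turned to -0.07 with 6 genes above and 11 below. Replication stood at 0.03 with 9 above and 8 below. By normexp 20.9% of all features lay above sham in both arrays and 58.1% below it, with a median of -0.13. Apart from Rtel1, none of these replication and mitosis genes was 2-fold apart. A second probe of the replication helicase Mcm3 differed by 0.71 where the first differed by 0.12.

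Genes that answer DNA damage through p53 showed no common direction, with 11 of 23 above sham in both arrays and 8 below it. Sesn2 differed by 0.65 ± 0.20, the cell cycle inhibitor Cdkn1a by -0.42 ± 0.07 and the death receptor Fas by -0.70 ± 0.14. Second probes of Cdkn1a and Fas, both measured on all 3 arrays, differed by 0.30 and 0.09. Of the oxidative stress genes, Srxn1, which repairs peroxiredoxins, read 1.23 and 1.33 in the treated arrays, 0.780 on the PBS array and 0.734 in sham (0.80 ± 0.08). Catalase (Cat), Gpx1 and Gstm1 differed by -0.49, -0.47 and -0.47.

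Some genes separated the treated arrays from each other. The smooth muscle list had medians of -0.27 in replicate 1 and 0.27 in replicate 3: 7 of its 12 measured genes lay on opposite sides of sham, 3 above it in both arrays and 2 below it. Tagln read 0.474 and 1.21 in replicates 1 and 3 and 0.831 in sham. Myh11, the smooth muscle myosin, read 0.896 and 1.83 in the treated arrays and 1.28 in sham, and Actg2 0.241 and 0.705 against 0.343 in sham. Acta2, also a marker of myofibroblasts, lay above sham in both, at 0.391 and 0.658 in the treated arrays and 0.248 in sham. The myelin gene Mbp followed the same split, at 0.0954 and 0.292 in the treated arrays and 0.185 in sham. For Tagln, Myh11, Actg2 and Mbp sham lies between the treated arrays, so the pair gives no common direction.

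Larger splits occurred at single genes. Ly6cl1 read 0.0476 and 0.404 in replicates 1 and 3 and 0.307 in sham, and the pineal enzyme Asmt 0.191 and 0.0432 against 0.0667 in sham. Ccdc92 read 0.0960 and 0.419 in replicates 1 and 3 and 0.263 in sham. Lhb, a pituitary hormone subunit, read 0.396 and 0.0915 in the treated arrays and 0.0640 in sham. Iqcm was low in replicate 3 alone, at 0.328 and 0.0809 in the treated arrays, 0.383 on the PBS array and 0.377 in sham, and its 4 probes, 1 of them below background on an array, gave -0.20, -0.59, -0.32 and -0.45 in replicate 1 and -2.22, -2.64, -2.28 and -2.08 in replicate 3. Osteopontin (Spp1), made by macrophages of the infarct, read 0.194 and 0.0545 in the treated arrays and 0.183 in sham.

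Marker genes of the injected cells were looked at last. Of 15 mesenchymal stem cell markers measured, 7 lay above sham in both treated arrays and 6 below it, with a median of 0.09. Ngfr, shared with Schwann cells, differed by 0.82 ± 0.40 but by -0.07 with normexp, Alcam by 0.56 and Prrx1 by 0.35. A second measured probe of Prrx1 differed by 0.07. The markers Nt5e, Cd44 and Cd34 differed by -0.23, -0.25 and -0.45. Thy1 and the BMP antagonist Grem1 were well above background on the arrays of cultured ADSCs, with signals of 1.77 and 10.5 in labelled cells and 1.90 and 7.96 in unlabelled cells, each relative to its own array. By its brightest probe, neither gene was well above background in the treated arrays or in sham. A second probe of Grem1 was well above background on 1 of these 3 arrays. It read 0.00992 and 0.0200 in treated replicates 1 and 3 and 0.00476 in sham. These signals do not limit how many injected cells remained, since the signal that a given share of cells would add is not known here.

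Genes measured on only 1 side were given bounds in the same way as the mast cell genes. Of 15443 named genes, 238 were well above background in both treated arrays and not in sham, with a bound above 1. By the bound, 42 of them were at least 2-fold higher in each treated array. Another 116 were well above background in sham only with a bound above 1, 45 of them at least 2-fold lower. A gene entered these counts only through the side where it was called. Sham had the lowest share of probes called, 64.4%, and the part of that in the counts was not tested. Gria4, an AMPA receptor subunit, was at least 3.41-fold higher in each treated array. Each of its 2 probes was well above background on 2 of the 3 arrays. Rpl39l1, a ribosomal protein gene, was at least 6.17-fold higher, and Sftpc, lung surfactant protein C, at least 4.42-fold, with signals of 0.0417 and 0.207 in replicates 1 and 3. Of the other lung epithelial genes, 4 of the 5 measured on all 3 arrays lay below sham. Scgb1a1, a further member of that list, was well above background in both treated arrays and not in sham. It was at least 1.2-fold higher in each. On the other side, Lrr1 was at least 39.2-fold lower in each treated array and Kcnk10 at least 10.2-fold. Each rests on 1 probe that was bright in sham alone, while a second probe of the same gene was at background on all 3 arrays. The lymphocyte genes Cd79b and Cd2 were at least 3.69-fold and 2.02-fold lower.

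Near the 2-fold line the ranking is a matter of small differences. Just inside it on the higher side stood Arhgap31 (smaller difference 1.00) and Hao1 (1.01), and just outside it Rpap3 and Ppp1r36, both at 0.99. On the lower side Nrg4 stood just inside at -1.01, and Acsbg1 and Klk1 just outside at -0.99.

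**Figure D5:**
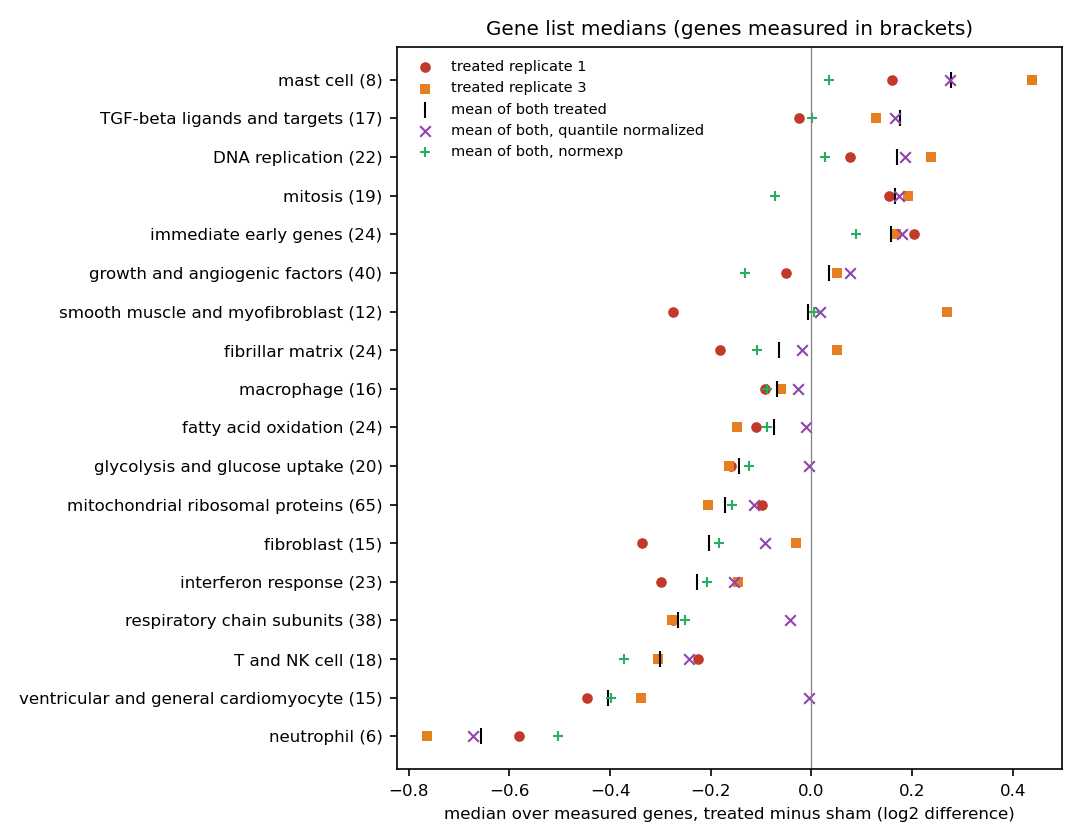
Median log2 difference from sham over the measured genes of 18 lists, for treated replicate 1, treated replicate 3 and their mean, and for the mean under 2 other ways of processing. The neutrophil, T and NK cell, interferon, fibroblast, macrophage, respiratory chain and mitochondrial ribosomal lists lie below 0 for every symbol. So do the fatty acid oxidation and glycolysis lists, which come near 0 with quantile normalization, as the ventricular cardiomyocyte list does. The smooth muscle list lies on opposite sides of 0 in the treated arrays.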

How the data were processed

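Myocardial total RNA was made into Cy3 probe with the Quick Amp kit and hybridised to 1-colour Agilent rat arrays, per the labels. Each array's intensity values were extracted from the scan and deposited by the authors (scanner software Feature Extraction 11.0.1.1, as the submitters' processing notes name it) as processed, median and background signals not normalized between arrays. A second file deposited by the authors gives log2 values without a stated method. Its columns ran parallel to the log2 processed signals (r at least 0.9998) and shared a median of 8.85 on the 4 myocardial arrays, and it served as an alternative. Slide and scan were the same for all 6 arrays and could not be tested as batches.

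Control spots and flagged outliers were removed. The log2 processed signal minus the array's 75th percentile was averaged over a probe's spots, and a probe counted as well above background if at least 50% of its spots did. Symbols came from RefSeq (GRCr8) through unversioned accessions for 18355 of 30367 probes; the headers name an older build, so no array coordinates are given. A gene was read from its brightest probe over the myocardial arrays. Normexp (offset 50) was run on median signals. limma 3.58.1 in R 4.3.3 (lmFit and eBayes, with Benjamini-Hochberg adjustment) was fitted to the 4 myocardial arrays over features detected on 1 or more, after a test on simulated data. Nothing says that the treated pair came from separate animals, so p-values rest on a spread that may be technical. A ± is the SD of the treated pair's differences. A bound divides the bright signal by the dim probe's own signal or by the lowest detected signal on that array, whichever is higher. That divisor is not a detection limit, since some undetected probes read higher than the lowest detected signal. Promoters are the 250 bases before a gene's start.

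Members and the 45 gene lists were chosen with earlier results of these data known. The text names the 25 highest and 25 lowest genes in part, those next to the 2-fold line, genes with bounds, genes that split the treated arrays, and list members. Some genes that the rule picks are not reported. Alternatives changed the background correction, scaling, dim-probe filter, probe choice, variance model, threshold and replicates.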

Additional observations from a re-analysis of the deposited data

How the results depend on the processing

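The counts of 2-fold features depended most on background, filter, threshold and the need for both treated arrays. Against 97 higher and 66 lower, normexp gave 40 and 32, no filter on dim probes 401 and 397, a 1.5-fold threshold 402 and 331, and a 4-fold threshold 12 and 9. Single treated arrays gave 170 to 222 higher and 181 to 191 lower. The limma count of 0 became 50 with normexp, 49 with a trended and robust variance, 3 with the deposited value table and 3 over features well above background on all 3 arrays. The cause of these differences was not tested. Of the 50 genes ranked highest and lowest, 4 turned sign with normexp and none with quantile normalization. Median scaling also turned none, but it shifts all features of an array by the same amount. The ranking required the same direction in both treated arrays, so neither treated array alone could turn a gene. List medians turned sign for 11 of 45 lists with normexp, 3 with quantile normalization, 5 with the deposited table, 0 with median scaling, and 5 and 6 in treated replicates 1 and 3 alone. Normexp moved the median of all features to -0.13, against -0.04. No paired analysis was possible because only the treated arrays carry replicate numbers and sham is a single array. With 1 sham array, a probe that misread sham would appear in both treated differences.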
